A study of Mus musculus with 40 samples.

Results

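The genes of the IL-6 cytokine family described here were 4 ligands (*Il6*, *Il11*, *Lif* and *Clcf1*), 5 receptor chains (*Il6st*, *Il6ra*, *Il11ra1*, *Lifr* and *Osmr*) and the feedback inhibitor *Socs3*. These 10 genes were listed by name and matched through their Ensembl identifiers, out of 55414 gene rows, and all 10 were among the 25210 kept for testing, whose counts over the 40 libraries summed to 10 or more. Poly-A RNA was sequenced from cultured cardiac fibroblasts of adult C57BL/6J mice of the TAK1fl/fl genotype, in which exon 2 of *Map3k7*, the gene of the kinase TAK1, is flanked by LoxP sites. Cells of all groups carried this floxed allele, had been grown with serum and human bFGF (20 ng/ml) to passage 1, and received an adenovirus with either LacZ (the control) or the recombinase iCre under the CMV promoter. Under serum starvation they were then given no ligand (CTRL), bFGF at 20 ng/ml, TGFβ at 10 ng/ml, IL-1β at 15 ng/ml or, again at 10 ng/ml, TNFα, each over 24 h. Each of the 10 groups of virus and ligand had 4 libraries, which the study describes as biological replicates from male mice. The comparisons ask how each ligand changed the expression of the family, and how far those changes depended on TAK1.

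Cytokines of the IL-6 family signal through gp130, the shared receptor chain encoded by *Il6st*. IL-6 and IL-11 first bind receptor chains of their own, whereas LIF and oncostatin M bring gp130 together with the LIF receptor or the oncostatin M receptor, and the complex then activates JAK kinases and STAT3. STAT3 induces *Socs3*, whose protein binds gp130 and JAK and dampens the signal, and in the heart fibroblasts are known as a source of several of these cytokines.

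The libraries held 25360947 to 66160732 counts each (median 36183962). Levels are given in CPM, a gene's counts scaled to a common library size with TMM factors. *Map3k7* was at 144 to 251 CPM in the LacZ libraries and 122 to 160.2 CPM in the iCre libraries. Its counts include exons outside the deleted part, so its level is not a sharp check of the deletion. The summed level of 10 fibroblast markers was 15350 to 69710 CPM, against 16.4 to 159 CPM for 6 macrophage and leukocyte markers, 0.814 to 13.5 CPM for 4 endothelial markers, 61.3 to 1368 CPM for 3 pericyte markers and 0.299 to 110.3 CPM for 2 cardiomyocyte markers, *Myh6* having under 10 counts in total. In bulk RNA, fewer cells of a type and less RNA per cell cannot be told apart. In 12 libraries, those of iCre fibroblasts given TGFβ, IL-1β or TNFα, genes of higher GC content were shifted upwards, by 0.197 to 0.339 log2 units for each 10% of GC, whereas the slope in the other 28 libraries was −0.248 to 0.00268. By the numbers in their library names, these 12 were also the last consecutive libraries of the series. An effect of library order cannot be told apart from one of virus and ligand in these groups, and was not tested. Libraries with the same replicate number deviated together from their group means, so calls that changed with the replicate number as a block are given with both fits. The iCre library with TNFα and number 1 stood apart from the other 3 of its group for several of these genes, and those results are also given without that number.

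In GRCm38 coordinates the ligand genes are *Il6* (ENSMUSG00000025746, chr5:30013114-30019981, plus strand), *Il11* (ENSMUSG00000004371, chr7:4772373-4782859, minus strand), *Lif* (ENSMUSG00000034394, chr11:4257557-4272514, plus strand) and *Clcf1* (ENSMUSG00000040663, chr19:4214238-4223490, plus strand). The receptor genes are *Il6st* (ENSMUSG00000021756, chr13:112464070-112510086, plus strand), *Il6ra* (ENSMUSG00000027947, chr3:89864059-89913196, minus strand), *Il11ra1* (ENSMUSG00000073889, chr4:41699989-41769474, plus strand), *Lifr* (ENSMUSG00000054263, chr15:7090614-7197489, plus strand) and *Osmr* (ENSMUSG00000022146, chr15:6813577-6874969, minus strand). *Socs3* is ENSMUSG00000053113, chr11:117966079-117970047, minus strand. The counts of *Il11ra1* are the least certain, since its span overlaps that of 6 other annotated genes, 5 of them on the opposite strand, the strand setting of the counting is not given in the sources used here, and 42.7% of the 100-base windows of its longest transcript also occur in *Il11ra2* or *Gm13305*. *Clcf1* shared 6.2% and *Il6ra* 1.69% of such windows with 1 overlapping gene each, and the other 7 members shared none.

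Upstream sequence is shown for the 4 members in which it held an NF-κB, AP-1 or STAT motif, the sites of factors that act downstream of these ligands or of gp130. RefSeq promoter windows (GRCm38.p6), from 250 bases before the start to 50 after it, were found for 9 of the 10 genes. Searched on both strands were the NF-κB site (by its consensus), AP-1 (TGANTCA), CRE (TGACGTCA), the STAT site GAS (TTCNNNGAA) and SMAD sites (GTCTNGAC or CAGAC). The 250 upstream bases are given 5′ to 3′ for *Il6* (chr5:30012864-30013113, plus strand), the downstream one of the *Il11* start sites (chr7:4778142-4778391, minus strand), *Lif* (chr11:4257318-4257567, plus strand) and *Socs3* (chr11:117969367-117969616, minus strand), with NF-κB, AP-1 and GAS matches in capitals.
Il6: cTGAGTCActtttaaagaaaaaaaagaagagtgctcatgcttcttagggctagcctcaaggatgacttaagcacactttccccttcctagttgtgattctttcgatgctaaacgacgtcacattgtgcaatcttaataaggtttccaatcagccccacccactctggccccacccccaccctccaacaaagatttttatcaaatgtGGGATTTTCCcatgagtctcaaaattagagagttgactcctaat
Il11: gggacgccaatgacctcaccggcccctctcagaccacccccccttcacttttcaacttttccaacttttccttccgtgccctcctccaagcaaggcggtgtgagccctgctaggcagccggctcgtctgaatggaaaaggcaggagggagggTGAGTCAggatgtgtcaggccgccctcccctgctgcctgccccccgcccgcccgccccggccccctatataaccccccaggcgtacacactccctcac
Lif: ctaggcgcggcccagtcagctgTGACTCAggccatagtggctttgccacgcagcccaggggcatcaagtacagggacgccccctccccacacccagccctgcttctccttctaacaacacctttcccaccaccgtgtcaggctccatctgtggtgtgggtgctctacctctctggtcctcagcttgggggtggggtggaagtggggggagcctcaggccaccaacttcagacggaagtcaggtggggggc
Socs3: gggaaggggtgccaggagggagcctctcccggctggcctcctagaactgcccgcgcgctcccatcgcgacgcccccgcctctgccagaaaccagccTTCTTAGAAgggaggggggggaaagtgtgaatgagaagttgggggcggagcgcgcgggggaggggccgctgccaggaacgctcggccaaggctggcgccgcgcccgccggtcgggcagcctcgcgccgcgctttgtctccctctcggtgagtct

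Counting the start base as 0, the *Il6* window had an NF-κB match at −44 to −35 and an AP-1 match at −249 to −243. Of all 32851 promoter windows in the table, 4.51% held an NF-κB match and 7.81% an AP-1 match. AP-1 matches also stood at −98 to −92 of the *Il11* start shown, at −228 to −222 of *Lif*, and at 3 to 9 of *Osmr*. *Socs3* had a GAS match at −154 to −146, a motif held by 8.3% of windows. The CRE motif (1.79% of windows) was in none of the 12 windows of the members, and the short SMAD motif, in 50.1% of all windows, was in those of *Il6*, *Il11*, *Lif*, *Il11ra1*, *Lifr* and *Osmr*. The windows of *Il6st* and *Il6ra* held none of these letters, and *Clcf1* was not searched.

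Per kilobase of exon, the shared chain stood well above the other genes. In LacZ CTRL fibroblasts *Il6st* was at 171 ± 27 RPKM (counted reads scaled by exon length in kilobases and by library size, mean ± SD, n = 4), followed by *Osmr* at 34.1 ± 4.93 and *Il11ra1* at 30.7 ± 3.58 RPKM. *Lifr* was at 5.34 ± 0.622 RPKM, and *Il6*, *Lif* and *Il11* were lowest, at 1.0 ± 0.238, 0.812 ± 0.255 and 0.608 ± 0.204 RPKM. With IL-1β in LacZ fibroblasts, *Il6* reached 131 ± 45.6 RPKM and was second to *Il6st* (239 ± 36.3 RPKM). With TGFβ in iCre fibroblasts, *Il11* (85.1 ± 61.4 RPKM) and *Il6st* (78.3 ± 34.4 RPKM) were within each other's spread. *Lifr*, by contrast, had the lowest mean of the 10 genes with TGFβ and with TNFα in iCre fibroblasts (0.64 ± 0.118 and 2.53 ± 2.11 RPKM). *Il6ra* was within its spread in both, at 0.805 ± 0.18 and 2.58 ± 0.987 RPKM.

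**Figure D1:**
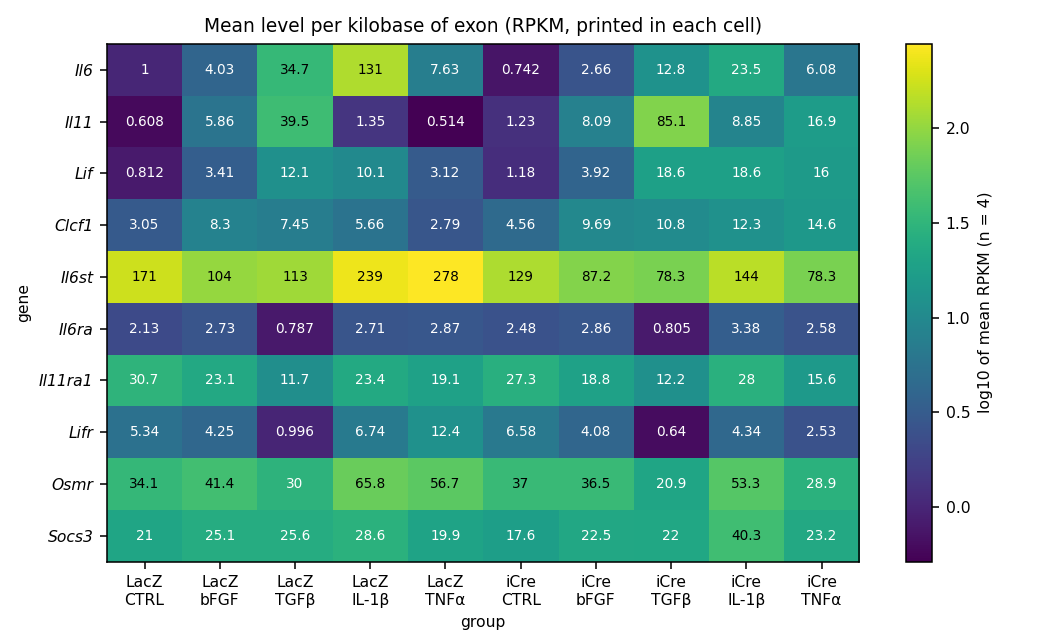
Mean RPKM (counted reads scaled by exon length in kilobases and by library size, n = 4 libraries) of the 10 genes in the 10 groups. *Il6st* was highest in 9 of the 10 groups, and *Il6* in LacZ fibroblasts with IL-1β (131) was the highest ligand value.

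The ligand genes rose with most stimuli, and the receptor genes went both ways. In LacZ fibroblasts bFGF raised 4 members, the 4 ligand genes, and lowered 1, *Il6st*, by edgeR's quasi-likelihood test at an adjusted p of at most 0.05, where of all genes tested 7% were called higher, 4.64% lower and 11.6% in all. TGFβ raised the 4 ligand genes and lowered 4 receptor genes (all genes: 17.5% higher, 19.3% lower and 36.9% in all). IL-1β raised 6 members and lowered 1, *Il11ra1* (11.1% higher, 9.55% lower and 20.7% in all), and TNFα raised 5 and lowered 1, also *Il11ra1* (10.9% higher, 10.4% lower and 21.3% in all). The members' median log2 fold change was 0.34 with bFGF, 0.07 for TGFβ, 0.70 for IL-1β and 0.57 for TNFα, against medians over all genes of −0.03, −0.17, −0.10 and −0.08.

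In iCre fibroblasts bFGF raised 1 member, *Lif*, and lowered 1, *Lifr* (all genes: 1.79% higher, 0.635% lower and 2.42% in all). TGFβ raised 4 and lowered 4 (18.6% higher, 18.8% lower and 37.4% in all), IL-1β raised 6 and lowered 1 (9.38% higher, 6.88% lower and 16.3% in all), and TNFα raised 4 and lowered 1 (14.7% higher, 12.3% lower and 27% in all). With the replicate block, bFGF raised 7 and lowered 3 members in LacZ (27.3% of all genes called) and raised 4 and lowered 3 in iCre (16.7%). With the replicate block the members called, and the share of all genes, were 9 (42%) in LacZ and 9 (41.5%) in iCre fibroblasts given TGFβ, 10 (33.5%) and 8 (33.8%) in those given IL-1β, and 7 (35.5%) and 7 (36.1%) in those given TNFα. All 4 ligand comparisons within a virus share their CTRL libraries. Effects below are log2 fold changes, each with its standard error (SE) where the result turns on it.

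**Figure D2:**
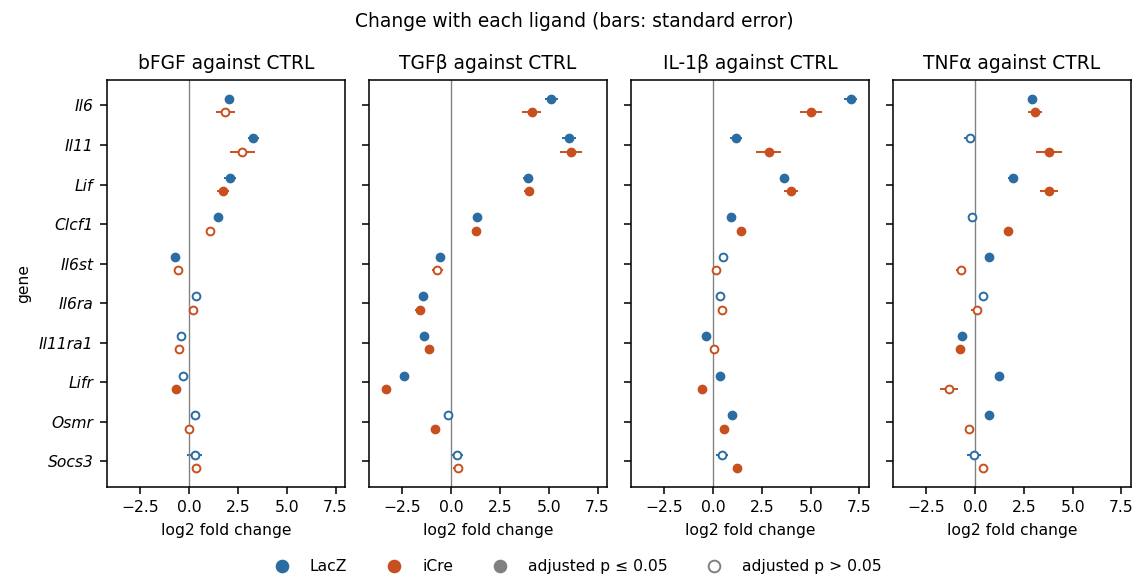
Log2 fold change of each gene with each ligand against CTRL in LacZ (blue) and iCre (orange) fibroblasts, with bars for the standard error (4 libraries against 4) and filled points for an adjusted p of at most 0.05. *Il6* with IL-1β lies at 7.04 in LacZ and 5.02 in iCre, and *Il11* with TNFα at −0.24 in LacZ and 3.81 in iCre.

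*Il6* encodes the cytokine that gives the family its name and that drives the acute phase response. In LacZ fibroblasts it was at 3.04, 1.78, 2.15 and 2.79 CPM with CTRL and at 428, 192, 262 and 392 CPM with IL-1β. This is the gene whose upstream sequence, shown above, held both the NF-κB and an AP-1 match, and a link of these matches to its response was not tested. All IL-1β libraries lay far above the CTRL libraries, with a log2 fold change of 7.04 (SE 0.33, adjusted p = 1.59e-06). In iCre fibroblasts IL-1β took it from 1.6, 1.41, 1.42 and 2.78 CPM to 59.1, 21.1, 34.4 and 113 CPM. These libraries too were all above their CTRL, with a log2 fold change of 5.02 (SE 0.54, adjusted p = 0.000435), but none reached the lowest LacZ library with IL-1β.

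Between iCre and LacZ fibroblasts with IL-1β the log2 fold change of *Il6* was −2.50 (SE 0.48, adjusted p = 0.00559), and it passed without each replicate number in turn. Among libraries of the same number, *Il6* was 7.25, 9.06, 7.6 and 3.46 times as high in LacZ as in iCre. The interaction, which tests whether the IL-1β effect itself differed, was −2.03 (SE 0.62, adjusted p = 0.0558) and missed the threshold, passing without number 2 or number 4 (adjusted p = 0.0442 and 0.0425). It passed with the replicate block (−2.18, adjusted p = 0.000105) and with the block and a correction for GC content (−1.67, adjusted p = 0.00267).

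TGFβ was the next strongest inducer of *Il6*, which reached 96.3, 41.8, 106 and 93.5 CPM in LacZ fibroblasts, a log2 fold change of 5.13 (SE 0.32, adjusted p = 2.79e-06). In iCre fibroblasts with TGFβ it was at 45.4, 8.44, 33.1 and 37.5 CPM, a log2 fold change of 4.14 (SE 0.49, adjusted p = 7.41e-05). Each iCre library was below the LacZ library of its number, but the ranges overlapped and the difference of −1.47 missed the threshold (adjusted p = 0.0722), while it passed with the block (adjusted p = 5.85e-08) and without number 2 (−1.41, adjusted p = 2.2e-05). GC correction took it to −0.87 (adjusted p = 0.495), and to −1.01 with the block as well (adjusted p = 5.5e-07). With TNFα *Il6* was at 16.5, 18.4, 19.5 and 19.7 CPM in the LacZ libraries and 14.2, 7.78, 19.6 and 17.4 CPM in those with iCre. Both groups were above their CTRL (log2 fold changes 2.93 and 3.07, adjusted p = 8.26e-06 and 0.000288) and overlapped each other, with a difference of −0.31 (SE 0.24, adjusted p = 0.382) whose value was −0.12 without number 2 and whose sign turned to 0.31 after GC correction. bFGF took *Il6* to 9.78 ± 0.921 CPM in LacZ (SD, n = 4, adjusted p = 0.000629) and to 6.45 ± 4.13 CPM in iCre (adjusted p = 0.0878, 9.9e-05 with the block and 0.00418 without number 2).

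*Il11* encodes a ligand known to be induced by TGFβ in fibroblasts. In LacZ fibroblasts it was at 1.0, 0.922, 1.28 and 1.86 CPM with CTRL and 53.8, 58.4, 109 and 108 CPM with TGFβ, a log2 fold change of 6.04 (SE 0.34, adjusted p = 1.58e-06). In iCre fibroblasts it went from 1.41, 3.83, 1.77 and 3.27 CPM to 90.7, 79.3, 183 and 356 CPM, a log2 fold change of 6.14 (SE 0.58, adjusted p = 1.82e-05). The TGFβ libraries stood above all CTRL libraries in both viruses, while the iCre and LacZ ranges with TGFβ overlapped. Their difference of 1.08 (SE 0.45, adjusted p = 0.201) missed the threshold and passed with the block (adjusted p = 7.22e-05). Without number 4, the highest iCre library with TGFβ, the difference was 0.63 (adjusted p = 0.519). The interaction was 0.07 (SE 0.67) and lay between −0.48 and 0.58 with 1 number left out.

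With TNFα, *Il11* was at 1.05, 1.5, 0.857 and 0.871 CPM in LacZ fibroblasts and at 5.29, 31.1, 35.8 and 68 CPM in iCre fibroblasts. The LacZ libraries overlapped CTRL (log2 fold change −0.24, SE 0.31, adjusted p = 0.639), whereas all iCre libraries lay above them and above their own CTRL (log2 fold change 3.81, SE 0.67, adjusted p = 0.00242), number 1 being well below the other 3. The difference between the viruses was 5.05 (SE 0.68, adjusted p = 0.000657), and 5.39 without number 1 (adjusted p = 0.000141). The interaction of 4.03 (SE 0.79, adjusted p = 0.00227) was 4.26 without number 1 and failed without number 3 (adjusted p = 0.0554). With IL-1β *Il11* was at 2.12, 2.09, 3.13 and 3.86 CPM in the LacZ libraries and 5.4, 13.2, 9.25 and 45.8 CPM in those with iCre. The groups did not overlap, number 4 was the highest iCre library, and the difference was 2.69 (SE 0.60, adjusted p = 0.0119), or 1.90 without number 4 (adjusted p = 0.0133). The interaction with IL-1β, 1.69, missed the threshold (adjusted p = 0.223) and was 0.79 without number 4. IL-1β itself raised *Il11* in LacZ by 1.16 on the log2 scale (adjusted p = 0.0233), which failed without number 1 (adjusted p = 0.0638) or number 3 (adjusted p = 0.132), and in iCre by 2.86 (adjusted p = 0.0136), which failed without number 3 (adjusted p = 0.0605).

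With bFGF *Il11* was at 8.92, 9.64, 16.4 and 13.8 CPM in the LacZ libraries and 6.61, 4.7, 20.0 and 36 CPM in those with iCre. All LacZ libraries were above their CTRL (log2 fold change 3.29, SE 0.29, adjusted p = 0.000432). In iCre the log2 fold change of 2.73 (SE 0.64, adjusted p = 0.0585) missed the threshold and passed with the block (adjusted p = 0.000237) or without number 2 (3.30, adjusted p = 0.0043).

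*Lif* encodes leukemia inhibitory factor, which signals through the LIF receptor and gp130, and it rose with all 4 ligands in both viruses. In LacZ fibroblasts it was at 2.63, 5.14, 3.34 and 3.02 CPM with CTRL, 40.3, 42.5, 39.8 and 53.6 CPM with IL-1β and 76.1, 44.1, 44.1 and 46.6 CPM with TGFβ. Both ligand groups lay above CTRL without overlap, with effects of 3.65 (adjusted p = 3.6e-06) for IL-1β and 3.92 (adjusted p = 3.71e-06) for TGFβ, and number 1 was the high library with TGFβ. The iCre libraries with IL-1β were at 59.4, 70.1, 53.4 and 140.2 CPM. They just overlapped the LacZ range, and the difference of 0.86 (SE 0.27, adjusted p = 0.0561) missed the threshold, passing with the block (adjusted p = 3.96e-05) and with DESeq2 (adjusted p = 0.0207). Without number 4, the high iCre library, it was 0.56 and passed (adjusted p = 0.0198). Within iCre fibroblasts *Lif* rose over CTRL with TGFβ (log2 fold change 4.01, adjusted p = 2.1e-06) and with IL-1β (adjusted p = 0.000153).

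With TNFα *Lif* was at 9.97, 20.3, 12.9 and 11 CPM in the LacZ libraries and 22.6, 112, 63.8 and 79.2 CPM in those with iCre. The groups did not overlap, with the number 1 library lowest in both, and against CTRL the log2 fold changes were 1.94 in LacZ and 3.80 in iCre (adjusted p = 0.000862 and 0.000369). The difference was 2.38 (SE 0.43, adjusted p = 0.00269), 2.54 without number 1 (adjusted p = 0.000581), and passed without each number. The interaction of 1.85 (SE 0.53, adjusted p = 0.0259) was 2.07 without number 1 and failed without number 3 (adjusted p = 0.184) or number 4 (adjusted p = 0.16). bFGF raised *Lif* to 14.8 ± 5.24 CPM in LacZ (log2 fold change 2.09, SE 0.29, adjusted p = 0.00278), which failed without number 3 (adjusted p = 0.0506), and to 17 ± 7.01 CPM in iCre (1.75, SE 0.31, adjusted p = 0.0241), which failed without number 1 (adjusted p = 0.133), number 3 (adjusted p = 0.232) or number 4 (adjusted p = 0.147).

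*Clcf1* encodes a cardiotrophin-like cytokine of the family. In LacZ fibroblasts it was at 11.6, 13.4, 9.55 and 11.8 CPM with CTRL and rose with bFGF (31.6 ± 9.87 CPM, log2 fold change 1.47), TGFβ (28.4 ± 4.16 CPM, 1.31) and IL-1β (21.5 ± 3.43 CPM, 0.91). The adjusted p was 0.00293, 4.88e-05 and 0.0012, and the call with bFGF failed without number 3 (adjusted p = 0.0544). With TNFα it was at 9.56, 10.8, 10.5 and 11.7 CPM in the LacZ libraries and 35.9, 43.9, 71.8 and 71.3 CPM in those with iCre. Every iCre library was above every LacZ library, a difference of 2.41 (SE 0.22, adjusted p = 0.000134), and its interaction was 1.83 (SE 0.29, adjusted p = 0.000461), both passing without each replicate number. With IL-1β it was at 17.6, 20.4, 25.7 and 22.5 CPM in the LacZ libraries and 39, 37, 48.1 and 63.9 CPM in those with iCre. These groups did not overlap either (difference 1.11, SE 0.18, adjusted p = 0.00239), while the interaction of 0.54 missed the threshold (adjusted p = 0.242). In iCre fibroblasts *Clcf1* rose over CTRL on the log2 scale by 1.27 after TGFβ, 1.46 after IL-1β and 1.72 after TNFα (adjusted p = 0.000287, 0.00121 and 0.000759).

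**Figure D3:**
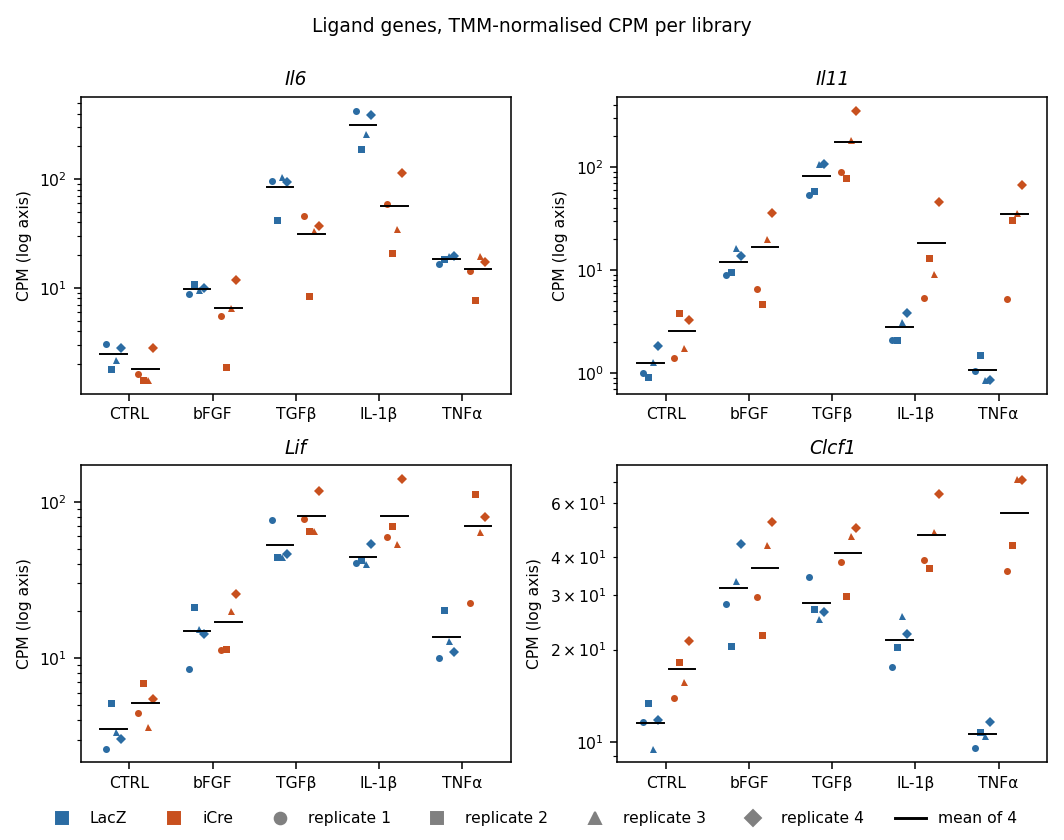
TMM-scaled CPM on a log axis of the 4 ligand genes in each library, by ligand and virus (LacZ blue, iCre orange), with a marker shape for each replicate number and a black line at the mean of 4. With IL-1β the iCre libraries of *Il6* lie below the LacZ libraries, and with TNFα the iCre libraries of *Il11*, *Lif* and *Clcf1* lie above them.

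*Il6st* encodes gp130. In LacZ fibroblasts it was at 2277, 1962, 1759 and 1578 CPM with CTRL and 3425, 3106, 3053 and 2781 CPM with TNFα. All TNFα libraries were higher, with a log2 fold change of 0.71 (SE 0.14, adjusted p = 0.00534) that failed without number 3 (adjusted p = 0.059). The iCre libraries given TNFα were at 1363, 671, 838 and 604 CPM. These were all below the LacZ libraries with TNFα, number 1 being the highest, and the difference was −1.81 (SE 0.25, adjusted p = 0.000779), or −2.08 without number 1 (adjusted p = 0.000165). The interaction of −1.41 (SE 0.31, adjusted p = 0.00501) was −1.74 without number 1 (adjusted p = 0.000654) and failed without number 3 (adjusted p = 0.0917) or number 4 (adjusted p = 0.0667). Against iCre CTRL (1545, 1055, 1651 and 1486 CPM), TNFα gave −0.69 (adjusted p = 0.0764, and 0.00336 with the block), and −0.95 without number 1 (adjusted p = 0.00911).

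With IL-1β *Il6st* was at 3137, 2668, 2674 and 2151 CPM in the LacZ libraries and 1801, 1652, 1792 and 1133 CPM in those with iCre. The iCre libraries were again all lower (difference −0.75, SE 0.19, adjusted p = 0.0207), a call that failed without number 1 (adjusted p = 0.0668) or number 3 (adjusted p = 0.0924). The rise with IL-1β in LacZ, 0.50, missed the threshold (adjusted p = 0.0551, and 1.19e-05 with the block). bFGF and TGFβ lowered *Il6st* in LacZ, to 1155 ± 249.7 CPM (log2 fold change −0.69, adjusted p = 0.0309) and 1257 ± 134 CPM (−0.57, adjusted p = 0.00802). The first call failed without number 3 (adjusted p = 0.17) or number 4 (adjusted p = 0.119), and the second without number 3 (adjusted p = 0.057).

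*Lifr* encodes the chain that pairs with gp130 to receive LIF. Its LacZ libraries were at 66.7, 57.1, 50.8 and 55.5 CPM with CTRL and 131, 119, 146 and 136 CPM with TNFα. The groups did not overlap (log2 fold change 1.21, SE 0.10, adjusted p = 4.54e-05). The iCre libraries were at 71.9, 72.9, 71.6 and 67.3 CPM with CTRL and 60.2, 12.2, 24.2 and 12.2 CPM with TNFα. The TNFα libraries were all below CTRL, number 1 far above the other 3, and the log2 fold change of −1.34 (SE 0.46, adjusted p = 0.0535) missed the threshold, passed with the block (adjusted p = 0.00271), and without number 1 was −2.08 and passed (adjusted p = 0.0012).

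The difference between the viruses with TNFα was −2.26 (SE 0.47, adjusted p = 0.00572) for *Lifr*, or −3.04 without number 1 (adjusted p = 0.000302), and it failed without number 3 (adjusted p = 0.0544). The interaction was −2.57 (SE 0.51, adjusted p = 0.00269), or −3.41 without number 1 (adjusted p = 5.76e-05), and failed without number 3 (adjusted p = 0.064). With IL-1β *Lifr* was at 76.3, 76.5, 74.6 and 63 CPM in the LacZ libraries and 58.5, 41.2, 55.8 and 31.4 CPM in those with iCre. The groups did not overlap, with a rise over CTRL of 0.35 in LacZ (adjusted p = 0.0369) and a log2 fold change of −0.58 in iCre (adjusted p = 0.0452). The rise passed only without number 1 once a number was left out (adjusted p up to 0.2), and the change in iCre failed whichever number was left out (adjusted p 0.0605 to 0.1). Its difference of −0.65 (SE 0.18, adjusted p = 0.0339) failed without number 2 (adjusted p = 0.0801) or number 3 (adjusted p = 0.0893), and the interaction of −0.94 (SE 0.21, adjusted p = 0.0108) failed without number 2 (adjusted p = 0.0625) or number 3 (adjusted p = 0.0847).

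TGFβ lowered *Lifr* in both viruses, to 10.3, 6.33, 11.8 and 14.5 CPM in LacZ (log2 fold change −2.41, SE 0.22, adjusted p = 1.86e-05) and 8.6, 6.96, 6.48 and 5.56 CPM in iCre (−3.34, SE 0.13, adjusted p = 3.93e-07). All TGFβ libraries were below all CTRL libraries of their virus, and the ranges of the viruses overlapped. The fall with bFGF in iCre fibroblasts, to 52.5, 47.2, 45.4 and 30.8 CPM (−0.68, SE 0.14, adjusted p = 0.0427), failed without number 1 (adjusted p = 0.14), number 3 (adjusted p = 0.351) or number 4 (adjusted p = 0.102). The interaction of *Lifr* with TGFβ, −0.96 (SE 0.26, adjusted p = 0.0439), failed without number 1 (adjusted p = 0.0743), number 3 (adjusted p = 0.429) or number 4 (adjusted p = 0.382) and after GC correction (adjusted p = 0.25, and 0.0802 with the block as well).

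*Osmr* encodes the partner of gp130 that receives oncostatin M. CTRL libraries of LacZ fibroblasts were at 495, 410.5, 355 and 389 CPM, those with IL-1β at 898, 728, 772 and 791 CPM and those with TNFα at 735, 659, 661 and 691 CPM. Neither ligand group overlapped CTRL, and the log2 fold changes were 0.96 (SE 0.13, adjusted p = 0.000664) and 0.74 (SE 0.11, adjusted p = 0.00143). The iCre libraries with TNFα were at 523, 282, 347 and 247 CPM. All were below the LacZ libraries with TNFα, a difference of −0.95 (SE 0.21, adjusted p = 0.00847), or −1.19 without number 1 (adjusted p = 0.000695), that failed without number 3 (adjusted p = 0.0634) or number 4 (adjusted p = 0.0507). The interaction of −1.07 (SE 0.25, adjusted p = 0.00726) was −1.43 without number 1 (adjusted p = 0.000182) and failed without number 3 (adjusted p = 0.0924) or number 4 (adjusted p = 0.0912). Against iCre CTRL (431, 463, 442 and 457 CPM) the log2 fold change of *Osmr* with TNFα was −0.32 (SE 0.21, adjusted p = 0.288), missing the threshold, and −0.60 without number 1 (adjusted p = 0.0136), which passed.

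With TGFβ *Osmr* was at 380.1, 312, 378 and 382 CPM in the LacZ libraries and 268, 264, 249 and 234 CPM in those with iCre. All iCre libraries were lower, and the difference of −0.55 (SE 0.09, adjusted p = 0.00505) failed without number 3 (adjusted p = 0.0927) or number 4 (adjusted p = 0.0836) and after GC correction (adjusted p = 0.0923, but 0.00138 with the block as well). The interaction with TGFβ was −0.66 (SE 0.14, adjusted p = 0.0102) and failed without number 3 (adjusted p = 0.208) or number 4 (adjusted p = 0.203). TGFβ lowered *Osmr* in iCre fibroblasts against CTRL (log2 fold change −0.80, SE 0.08, adjusted p = 3.13e-05). IL-1β raised it in iCre also, to 646 ± 26.8 CPM (log2 fold change 0.55, SE 0.08, adjusted p = 0.00224).

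*Il6ra* and *Il11ra1* encode the chains that bind IL-6 and IL-11. TGFβ took *Il6ra* in LacZ fibroblasts from 22.1, 19.2, 16.9 and 15.4 CPM to 5.19, 7.5, 7.61 and 6.89 CPM (log2 fold change −1.42, SE 0.16, adjusted p = 6.4e-05). *Il11ra1* went from 153, 119, 148 and 128 CPM to 53, 45.3, 53.2 and 56.8 CPM (log2 fold change −1.38, SE 0.11, adjusted p = 1.05e-05). Both fell with TGFβ in iCre as well, to 6.96 ± 1.55 and 54.8 ± 8.77 CPM (log2 fold changes −1.60 and −1.14, adjusted p = 0.000212 and 0.000103), with no overlap with CTRL for either gene in either virus. TNFα lowered *Il11ra1* to 85.3 ± 12 CPM in LacZ (log2 fold change −0.68, SE 0.12, adjusted p = 0.00384) and to 69.8 ± 22.9 CPM in iCre (−0.77, SE 0.22, adjusted p = 0.0245), where the value was −0.95 without number 1 and the call failed without number 3 (adjusted p = 0.119) or number 4 (adjusted p = 0.0653). With IL-1β in LacZ *Il11ra1* was at 105 ± 11.7 CPM, a log2 fold change of −0.38 (SE 0.12, adjusted p = 0.0437) that failed without number 1 (adjusted p = 0.083), number 3 (adjusted p = 0.182) or number 4 (adjusted p = 0.147). Neither gene passed between the viruses under any ligand without the block.

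*Socs3* encodes the feedback inhibitor of gp130 signals. LacZ libraries had 43.2, 112, 48.8 and 39.1 CPM in CTRL, 65.1, 119, 73.5 and 73.6 CPM after IL-1β and 46.8, 92.8, 45 and 46 CPM after TNFα. Number 2 was the highest library in all 5 LacZ groups, and the log2 fold change with IL-1β, 0.47 (SE 0.32, adjusted p = 0.342), missed the threshold and passed with the block (0.55, adjusted p = 7.15e-06) or without number 2 (0.69, adjusted p = 0.000637). In iCre fibroblasts IL-1β took it from 36.4, 48.8, 61.2 and 56.5 CPM to 115, 142, 96.6 and 113 CPM. These groups did not overlap, with a log2 fold change of 1.22 (SE 0.17, adjusted p = 0.00133), while the interaction of 0.74 (SE 0.40, adjusted p = 0.332) missed the threshold and was 0.37 without number 2.

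**Figure D4:**
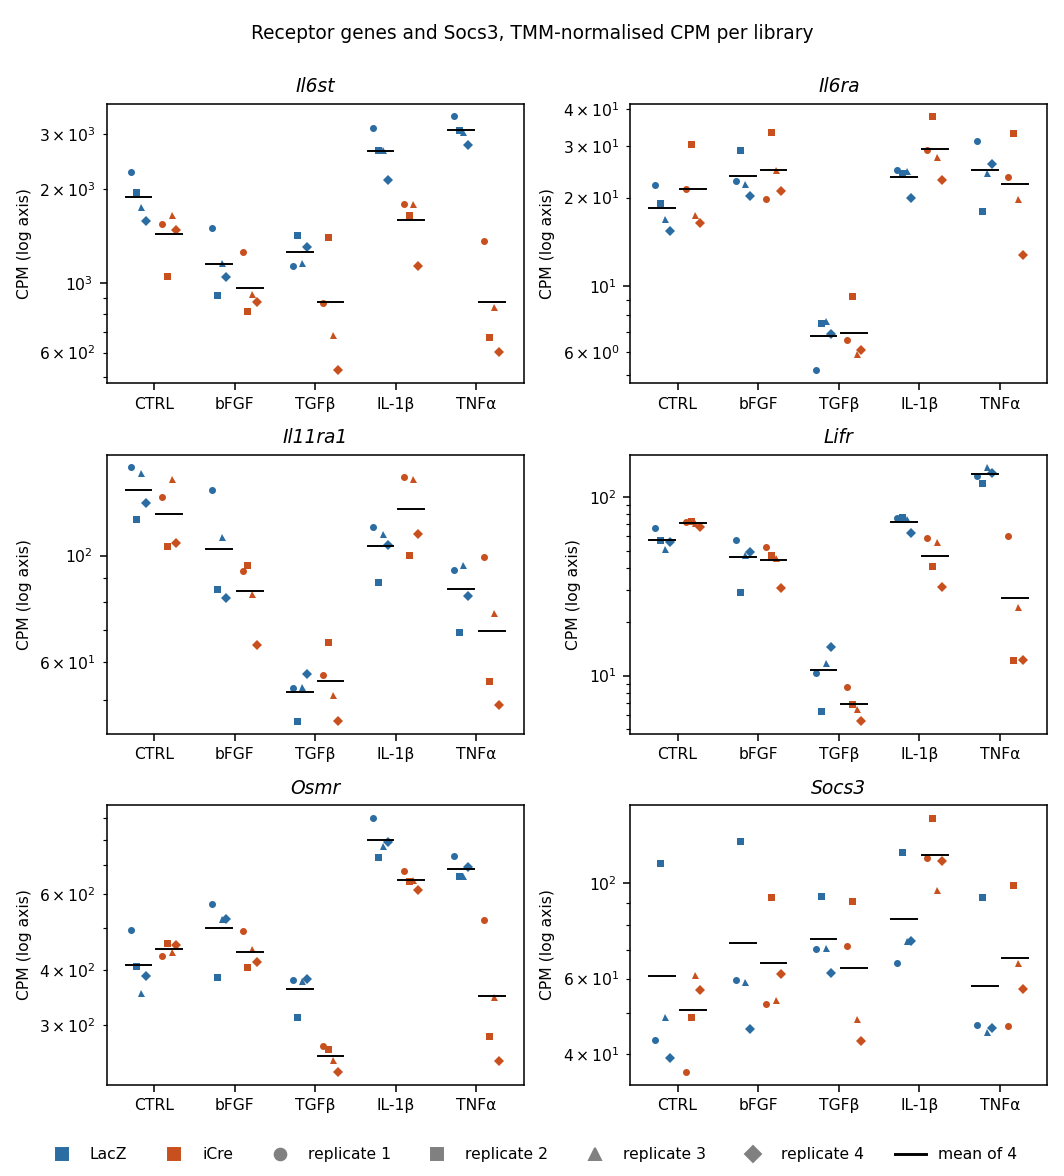
TMM-scaled CPM on a log axis of the 5 receptor genes and *Socs3* in each library, by ligand and virus (LacZ blue, iCre orange), with a marker shape for each replicate number and a black line at the mean of 4. With TNFα the iCre libraries of *Il6st*, *Lifr* and *Osmr* lie below the LacZ libraries, number 1 being the highest of the 4, and *Il6ra* and *Il11ra1* are lowest with TGFβ.

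Between iCre and LacZ fibroblasts, edgeR called 0 members with CTRL (all genes: 0.0278% higher, 0.0476% lower and 0.0754% in all) and 0 with bFGF (0% higher, 0% lower and 0% in all). At an unadjusted p under 0.05 there were 4 and 0, against 3538 and 2585 of all 25210 genes, and DESeq2 called 2 and 0, against 5.43% and 1.95% of all genes. With the replicate block, *Clcf1*, *Il11*, *Lif* and *Lifr* were higher and *Il6st* lower with CTRL (14.5% of all genes called), and *Il6*, *Il6st* and *Il11ra1* were lower with bFGF (13.9%). With TGFβ *Osmr* alone was called, and lower (2.51% higher, 5.87% lower and 8.37% in all), while the block called 3 members higher and 5 lower (20.8%). With IL-1β *Clcf1* and *Il11* were higher and *Il6*, *Il6st* and *Lifr* lower (7.14% higher, 8.98% lower and 16.1% in all), and the block called 6 higher and 4 lower (29.5%). With TNFα *Clcf1*, *Il11* and *Lif* were higher and *Il6st*, *Lifr* and *Osmr* lower (14.8% higher, 12.6% lower and 27.3% in all), and the block called the same 6 genes in the same directions (32.2%).

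Tests of the interaction called these 6 genes with TNFα (all genes: 8.38% higher, 7.7% lower and 16.1% in all), of which *Clcf1* alone remained without number 3, *Lifr* and *Osmr* with TGFβ (0.893% higher, 3.62% lower and 4.51% in all), and *Lifr* with IL-1β (2.76% higher, 4.95% lower and 7.71% in all), to which the block added *Il6* and *Osmr*, with a more negative IL-1β effect in iCre, and *Il11ra1*, with a more positive one (16.9%). With bFGF the count was 0 (0%), with 0 members at an unadjusted p under 0.05 (765 of all genes) and 0 by DESeq2 (0% of all genes). Without number 3 the TNFα interaction called 525 of all genes higher and 835 lower, against 2113 and 1941 with all numbers. The members then lost had values of 3.76 (*Il11*), 1.74 (*Lif*), −2.42 (*Lifr*), −1.305 (*Il6st*) and −1.04 (*Osmr*).

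Some further log2 fold changes missed the threshold without the replicate block and passed with it, and each is given from the fit without the block with both adjusted p, the blocked one second. For the ligand genes between the viruses, iCre against LacZ gave with CTRL 1.01 (adjusted p = 0.268 and 0.0184) for *Il11*, 0.52 (adjusted p = 0.398 and 0.0314) for *Lif* and 0.57 (adjusted p = 0.144 and 0.00107) for *Clcf1*. With TGFβ it gave 0.59 (adjusted p = 0.168 and 0.00328) for *Lif* and 0.51 (adjusted p = 0.0896 and 0.00515) for *Clcf1*, and with bFGF −0.61 (adjusted p = 0.611 and 0.0342) for *Il6*. Within iCre fibroblasts bFGF gave 1.10 (adjusted p = 0.0566 and 7.93e-05) for *Clcf1*.

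For *Il6st* the values in iCre fibroblasts were −0.56 (adjusted p = 0.159 and 0.000326) with bFGF and −0.71 (adjusted p = 0.0659 and 0.0152) with TGFβ, and between the viruses −0.41 (adjusted p = 0.302 and 0.0104) with CTRL, −0.25 (adjusted p = 0.639 and 0.0145) with bFGF and −0.56 (adjusted p = 0.238 and 0.00148) with TGFβ. The sign was negative in each of these 5 comparisons. For *Lifr* the values were −0.31 (adjusted p = 0.316 and 0.0326) with bFGF in LacZ, and 0.29 (adjusted p = 0.2 and 0.00791) with CTRL and −0.67 (adjusted p = 0.137 and 0.021) with TGFβ between the viruses. For *Osmr* they were 0.30 (adjusted p = 0.23 and 0.0194) with bFGF in LacZ, −0.32 (adjusted p = 0.0748 and 0.00462) between the viruses with IL-1β, and −0.43 (adjusted p = 0.0715 and 0.00767) for the interaction with IL-1β.

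For *Il6ra* the values were positive, at 0.38 (adjusted p = 0.14 and 0.0128) with bFGF, 0.36 (adjusted p = 0.065 and 0.00146) with IL-1β and 0.43 (adjusted p = 0.101 and 0.00267) with TNFα in LacZ, 0.47 (adjusted p = 0.169 and 2.07e-07) with IL-1β in iCre, and 0.31 (adjusted p = 0.196 and 0.0245) between the viruses with IL-1β. *Il11ra1* had −0.39 (adjusted p = 0.176 and 0.00115) with bFGF in LacZ and −0.52 (adjusted p = 0.0981 and 0.000803) in iCre, −0.29 (adjusted p = 0.586 and 0.0462) between the viruses with bFGF and 0.24 (adjusted p = 0.303 and 0.0275) with IL-1β, and an interaction with IL-1β of 0.42 (adjusted p = 0.267 and 0.00355). *Socs3* had 0.28 (adjusted p = 0.694 and 0.00661) with bFGF and 0.31 (adjusted p = 0.437 and 0.0298) with TGFβ in LacZ, and −0.25 (adjusted p = 0.567 and 0.0329) with TGFβ and 0.48 (adjusted p = 0.1 and 0.000137) with IL-1β between the viruses. The value with TGFβ in LacZ was 0.21 without number 1 and 0.63 without number 2, where it passed (adjusted p = 0.00074).

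With GC correction as well as the block, 7 of these changes no longer passed. Between the viruses they were 0.23 (adjusted p = 0.285) for *Clcf1* and −0.41 (adjusted p = 0.159) for *Lifr* with TGFβ, and −0.22 (adjusted p = 0.063) for *Osmr*, 0.20 (adjusted p = 0.169) for *Il6ra* and 0.03 (adjusted p = 0.873) for *Il11ra1* with IL-1β. The interaction of *Il11ra1* with IL-1β was then 0.23 (adjusted p = 0.0825) and the change of *Osmr* with bFGF in LacZ 0.21 (adjusted p = 0.083). Without the block GC correction took *Clcf1* with TGFβ between the viruses to 0.24, *Lif* to 0.39 and *Socs3* to −0.56, and *Socs3* with IL-1β to 0.22. Passing with both steps but with neither the block alone nor without it were *Socs3* with bFGF in iCre (0.41, adjusted p = 0.0344) and *Il11ra1* between the viruses with CTRL (−0.20, adjusted p = 0.0367) and TNFα (−0.49, adjusted p = 0.0147).

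Several of these calls turned on 1 replicate number, some of them with log2 fold changes that moved little. Without number 2 the changes in iCre with bFGF were −0.61 (adjusted p = 0.0204) for *Il6st*, 1.30 (adjusted p = 0.0039) for *Clcf1* and −0.66 (adjusted p = 0.0147) for *Il11ra1*, in a comparison where the share of all genes called then went from 2.42% to 12.7%. In the same way *Il6st* with TGFβ in iCre was −1.16 (adjusted p = 9.99e-05), and *Il6ra* was 0.57 (adjusted p = 0.0155) with TNFα in LacZ and 0.54 (adjusted p = 0.0178) with IL-1β in iCre. Between the viruses *Il6st*, *Lifr* and *Clcf1* with TGFβ were −0.86 (adjusted p = 0.00309), −0.89 (adjusted p = 0.00977) and 0.58 (adjusted p = 0.0138), and *Socs3* with IL-1β was 0.63 (adjusted p = 0.00241). All 10 of these passed without number 2, and calls among all 25210 genes moved there too. Higher and lower, they went from 4694 and 4744 to 5030 and 5057 for TGFβ in iCre. For TNFα in LacZ they went from 2745 and 2613 to 2971 and 2946, and for IL-1β in iCre from 2364 and 1734 to 2570 and 1996. Between the viruses they went from 632 and 1479 to 1029 and 2129 with TGFβ, and from 1799 and 2265 to 1970 and 2221 with IL-1β.

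Other values moved by over 1.5 times without passing. Without number 2 *Lifr* with bFGF in LacZ was −0.17, and between the viruses *Il11* and *Il6st* with CTRL were 0.63 and −0.27. With bFGF between the viruses *Il6* was −0.24 without number 2 and −1.08 without number 4, and *Il11ra1* was −0.17 without number 1 and −0.44 without number 2. With TGFβ between the viruses *Il6st*, *Lifr* and *Lif* were −0.37, −0.41 and 0.29 without number 4, and *Socs3* was −0.17 without number 3.

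**Figure D5:**
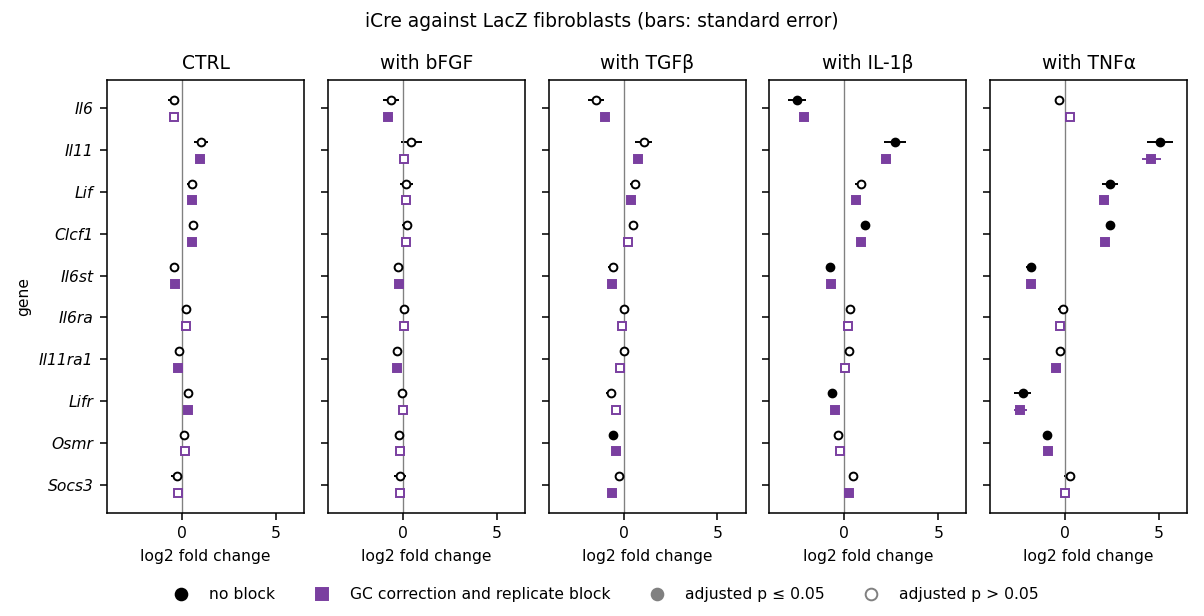
Log2 fold change of iCre against LacZ fibroblasts for each gene under each condition, without a block (black circles) and with GC correction and a replicate block (purple squares), bars being standard errors and filled points an adjusted p of at most 0.05. With TNFα *Il11*, *Clcf1* and *Lif* lie at 5.05, 2.41 and 2.38 and *Lifr*, *Il6st* and *Osmr* at −2.26, −1.81 and −0.95 without the block.

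The GC trend of the libraries runs along these contrasts. The genes lower in iCre with IL-1β or TNFα, *Il6*, *Lifr*, *Osmr* and *Il6st*, have 39.3%, 44.4%, 46% and 47.4% GC in their transcripts, and the genes that were higher, *Il11*, *Lif* and *Clcf1*, have 51.5%, 53% and 56.1%. *Il6ra*, *Il11ra1* and *Socs3*, called in neither of these contrasts without the block, have 50.4%, 54.7% and 58.7%. After GC correction the difference with TNFα was 4.95 for *Il11*, 2.25 for *Lif*, 2.19 for *Clcf1*, −2.05 for *Lifr*, −1.77 for *Il6st* and −0.84 for *Osmr*, and each passed the threshold. With IL-1β *Il6* was then at −1.92 (adjusted p = 0.0307), and *Lifr*, at −0.45, no longer passed (adjusted p = 0.191, and 0.000721 with the block as well). The other calls lost with GC correction were the change of *Lifr* with IL-1β in LacZ (0.32, adjusted p = 0.0667) and in iCre (−0.44, 0.167), the interactions of *Lifr* with TGFβ (0.25) and IL-1β (0.0706), and for *Osmr* with TGFβ the difference between the viruses (0.0923) and the interaction (0.127). With the block as well, the change of *Lifr* with IL-1β passed in LacZ (0.32, adjusted p = 0.00272) and in iCre (−0.48, adjusted p = 0.000425). In that fit 1 member passed for the TGFβ interaction and 3 for the IL-1β interaction.

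Cell type markers also differed between the viruses. The summed fibroblast markers were 25800 to 34600 CPM in the LacZ libraries and 15350 to 23390 CPM in those with iCre with TNFα, with 5 of 10 called lower and 2 higher (all genes: 12.6% lower and 14.8% higher). The summed pericyte markers were 61.3 to 355 CPM in the LacZ libraries and 272 to 1075 CPM in those with iCre, with 2 of 3 called higher, and 1 of 6 macrophage and leukocyte markers was called higher. The 2 cardiomyocyte markers summed to 0.944 to 6.65 CPM in the LacZ libraries and 0.50 to 19.7 CPM in those with iCre. With IL-1β the summed fibroblast markers were 36620 to 69710 CPM in the LacZ libraries and 22850 to 35690 CPM in those with iCre, with 3 of 10 called lower and 0 higher (all genes: 8.98% lower and 7.14% higher). The 3 pericyte markers then summed to 244 to 761 CPM in the LacZ libraries and 372 to 882 CPM in those with iCre, and 1 of them, *Kcnj8*, was called higher (0.88, adjusted p = 0.0277). The cardiomyocyte markers summed to 0.299 to 1.67 CPM in the LacZ libraries and 1.93 to 16.3 CPM in those with iCre, with *Tnnt2* called higher (3.11, adjusted p = 0.0199), and the endothelial markers to 1.52 to 4.8 CPM in the LacZ libraries and 1.65 to 6.04 CPM in those with iCre, with *Tie1* called lower (−3.18, adjusted p = 0.0125). The 6 macrophage and leukocyte markers summed to 47.4 to 159 CPM in the LacZ libraries and 33.8 to 109 CPM in those with iCre. With the replicate block the calls with IL-1β were 1 higher and 7 lower of the fibroblast, 2 higher and 0 lower of the pericyte, 1 higher and 0 lower of the cardiomyocyte, 1 higher and 1 lower of the endothelial and 1 higher and 4 lower of the macrophage and leukocyte markers (all genes: 14.6% higher and 14.9% lower).

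Markers moved with the ligands too. In LacZ fibroblasts against CTRL, the pericyte marker *Kcnj8* was lower with TGFβ, IL-1β and TNFα (−2.02, −1.08 and −4.06, adjusted p = 0.00105, 0.0138 and 1.28e-05) and *Abcc9* with TGFβ and TNFα (−1.92 and −2.82, adjusted p = 0.0156 and 3.97e-05). The 3 pericyte markers summed to 91.5 to 541 CPM with CTRL, and to 389 to 938 CPM after TGFβ, 244 to 761 CPM after IL-1β and 61.3 to 355 CPM after TNFα. *Tnnt2* was lower with TGFβ, IL-1β and TNFα (−2.76, −5.64 and −3.78, adjusted p = 0.00787, 0.000605 and 0.00485), and the cardiomyocyte markers summed to 14.7 to 110.3 CPM with CTRL, and to 2.85 to 14.4 CPM after TGFβ, 0.299 to 1.67 CPM after IL-1β and 0.944 to 6.65 CPM after TNFα. Of the macrophage and leukocyte markers, summed to 50.1 to 145 CPM with CTRL and 47.4 to 159 CPM with IL-1β, *Csf1r* was higher with IL-1β (0.87, adjusted p = 0.0411) and *Cd68* lower with TGFβ (−0.90, adjusted p = 0.0266). Of the 10 fibroblast markers, 1 was called higher and 2 lower in LacZ after bFGF (7% and 4.64% of all genes), 3 and 3 after TGFβ (17.5% and 19.3%), 2 and 1 after IL-1β (11.1% and 9.55%), and 0 and 1 after TNFα (10.9% and 10.4%). In iCre the same counts, higher and then lower, were 1 and 0 after bFGF (1.79% and 0.635%), 4 and 3 after TGFβ (18.6% and 18.8%), 0 and 0 after IL-1β (9.38% and 6.88%), and 1 and 1 after TNFα (14.7% and 12.3%). The fibroblast markers summed to 30430 to 47670 CPM in LacZ with CTRL, 22850 to 31190 CPM after bFGF, 57150 to 66620 CPM after TGFβ, 36620 to 69710 CPM after IL-1β and 25800 to 34600 CPM after TNFα. In iCre they summed to 20810 to 37000 CPM with CTRL, 17180 to 25350 CPM after bFGF, 46880 to 61770 CPM after TGFβ, 22850 to 35690 CPM after IL-1β and 15350 to 23390 CPM after TNFα, and in both viruses the TGFβ libraries lay above all CTRL libraries. In iCre fibroblasts *Abcc9* and *Kcnj8* were called lower with TGFβ and TNFα, *Tnnt2* and *Cd68* lower with TGFβ, and with TNFα *Actn2* and *Kdr* lower and *Cdh5* higher. The part of other cells, or of the fibroblast state, in the changes of the family was not tested.

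Of 10 genes of JAK and STAT signalling, 7 rose and 0 fell with TNFα in LacZ fibroblasts (median log2 fold change 0.38), and 5 rose and 1 fell with IL-1β (all genes: 10.9% higher and 10.4% lower with TNFα, 11.1% higher and 9.55% lower with IL-1β). *Jak2*, a kinase that works at gp130, was at 75.3 ± 11.7 CPM in LacZ CTRL, 306 ± 33.4 CPM after IL-1β and 359.6 ± 81.8 CPM after TNFα. iCre fibroblasts had 97.4 ± 14.6 and 75.7 ± 10.4 CPM with these ligands, differing from LacZ by −1.67 and −2.23 on the log2 scale (adjusted p = 4.84e-05 and 5.84e-05). In the TNFα contrast 5 of the 10 were lower and 0 higher, and with IL-1β 2 were lower and 1 higher (all genes: 14.8% higher and 12.6% lower with TNFα, 7.14% higher and 8.98% lower with IL-1β).

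Of 12 target genes of STAT3 and C/EBP factors, 10 rose in LacZ fibroblasts given IL-1β and 8 in those given TNFα, and 10 rose with each of the same ligands in iCre, against 11.1%, 10.9%, 9.38% and 14.7% of all genes called higher in these comparisons. The acute phase gene *Saa3* was at 3.81 ± 2.66 CPM in LacZ CTRL, and with IL-1β at 4475 ± 479 CPM in the LacZ libraries and 202 ± 86.6 CPM in those with iCre (−4.48, adjusted p = 3.1e-05). *Lcn2*, the gene of lipocalin 2, was at 2995 ± 833 CPM in the LacZ libraries and 414 ± 122 CPM in those with iCre with IL-1β (−2.87, adjusted p = 0.000152). *Timp1*, which encodes an inhibitor of metalloproteinases, was at 773 ± 98.2 CPM in the LacZ libraries and 1649 ± 626 CPM in those with iCre with TNFα (1.11, adjusted p = 0.00789). The list went both ways between the viruses, with 2 higher and 3 lower in iCre with IL-1β, and 4 higher and 3 lower with TNFα (all genes: 7.14% higher and 8.98% lower with IL-1β, 14.8% higher and 12.6% lower with TNFα).

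Of 7 other feedback inhibitors, 3 rose and 1 fell with IL-1β in LacZ (all genes: 11.1% higher and 9.55% lower), and *Ptpn2*, the gene of a phosphatase that acts on JAK and STAT proteins, went from 18.4 ± 2.58 to 56.8 ± 6.27 CPM (1.64, adjusted p = 1.11e-05). With TNFα 4 of the 7 were lower and 0 higher in iCre than in LacZ (all genes: 12.6% lower and 14.8% higher). *Adam10* and *Adam17*, the genes of proteases that shed the IL-6 receptor from the cell surface, were both lower in iCre with IL-1β and with TNFα. *Adam17* was at 309 ± 21.3 CPM in the LacZ libraries and 154 ± 10.3 CPM in those with iCre with TNFα (−0.99, adjusted p = 0.00015).

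Of 8 further ligands and partners of the family, *Ctf2* and *Il31* had under 10 counts in total. Of 4 further receptors 3 were tested, and 3 fell with TGFβ in LacZ (all genes: 19.3% lower). *Il31ra*, the gene of the receptor chain for IL-31, was at 0.376 ± 0.113 CPM in LacZ CTRL, 0.0814 ± 0.0609 CPM after IL-1β and 0.0597 ± 0.0728 CPM after TNFα (−2.17 and −2.51, adjusted p = 0.0332 and 0.028). *Il27ra*, a receptor gene that also uses gp130, was at 30.4 ± 6.16 CPM in the LacZ libraries and 16.6 ± 6.18 CPM in those with iCre with TNFα (−0.85, adjusted p = 0.0437).

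Ordered by mean CPM over the 10 groups, *Il6* was highest in LacZ with IL-1β (318 CPM), where no library of the next group came within its range, and all other neighbours in its order overlapped, down to iCre CTRL (1.8 CPM). The order of *Il11* broke once, between LacZ with bFGF (12.2 CPM) and LacZ with IL-1β (2.8 CPM), with the groups of TGFβ, of bFGF and of iCre with TNFα or IL-1β above the break. *Lif* had a break between LacZ with IL-1β (44 CPM) and iCre with bFGF (17 CPM) and another above the CTRL groups (5.12 and 3.53 CPM). The first holds for these neighbours only, since iCre with TNFα, higher in the order, reached down to 22.6 CPM and iCre with bFGF up to 25.6 CPM. *Lifr* was highest in LacZ with TNFα (133 CPM) with no overlap with the next group and was lowest in iCre with TGFβ (6.9 CPM). *Il6ra* broke between LacZ CTRL (18.4 CPM) and iCre with TGFβ (6.96 CPM), the TGFβ groups being the lowest. For *Il6st*, *Il11ra1* and *Socs3* every group overlapped the next in order, from 3091 to 869 CPM, 137 to 52.1 CPM and 116 to 50.7 CPM.

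Over the 10 group means of log2 CPM, where each point is the same 4 libraries for both genes, each member was compared with 13073 genes as a description. *Il6* was most like *Slc39a14* (Pearson's r = 0.969), *Il11* like *Bzw2* (0.987), *Lif* like *Uap1* (0.982) and *Clcf1* like *Foxl1* (0.970). *Il6st* was most like *Slc4a4* (0.974), *Il6ra* like *Jade2* (0.984), *Il11ra1* like *Gm16365* (0.987), *Lifr* like *Sash1* (0.979) and *Osmr* like *Acvr1b* (0.954). *Socs3* had the lowest best match, *Shb* (0.857). Among the members themselves, r over the 10 groups was −0.94 for *Il11* and *Lifr*, 0.77 for *Il6* and *Lif*, and 0.31 for *Il6* and *Il11*.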

How the data were processed

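Cardiac fibroblast RNA was sequenced in 40 libraries. The authors checked reads with FastQC (0.10.1 in the submitters' processing notes, another version in the study's methods), aligned them with STAR to GRCm38 (mm10) and counted them with HTSeq 0.10.0, and the deposited values are raw counts per gene. Symbols, exon lengths and coordinates came from GENCODE M21, which held 52133 of 55414 gene rows (99.6% of counts). Depth, 25360947 to 66160732 counts, limits the precision of low genes. Genes with at least 10 counts in total were kept and tested with edgeR 4.0.16 (limma 3.58.1, R 4.3.3) by quasi-likelihood with TMM scaling, using only the libraries of the groups compared, and Benjamini-Hochberg adjustment over 25210 genes (threshold 0.05). The study's methods name DESeq2, which was run here (1.42.0) as an alternative. RPKM divides by merged exon length. Member names, gene lists and tests were chosen with earlier results of these data known. All members are named. From each list up to 3 genes, those with the largest change among those passing with IL-1β or TNFα or between viruses with them, may be named, and for each member the genes with the highest r. The script was tested on simulated data.

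Replicate numbers, taken from the labels, were checked for pairing on 13090 genes. Deviations from group means correlated at 0.3 to 0.857 between same-numbered libraries in each of 13 pairs of groups, against means of −0.204 to −0.134 for other numbers, so fits with the number as a block are given where they change a call. Since each deviation is taken from its group's mean, positive values for same numbers largely force the negative ones, which are no separate baseline. Other alternatives were RLE scaling, another filter or none, all 40 libraries in 1 fit, each number left out, and a correction for GC content. Python 3.11.15, pandas 2.3.3 and numpy 2.4.6 were used for tables and promoter searches.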

Additional observations from a re-analysis of the deposited data

Results flagged for a closer look

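Among the 100 sets of 4 libraries (10 genes in 10 groups), 8 held 1 library far from the other 3 by Dixon's test, which chance flags in about 1 of 20. *Socs3* was high in number 2 of LacZ CTRL (111.6 CPM), LacZ with IL-1β (118.6 CPM) and LacZ with TNFα (92.83 CPM). *Lif* was high in number 1 of LacZ with TGFβ (76.13 CPM) and *Osmr* low in number 2 of the same group (312.5 CPM). With IL-1β in LacZ, the lowest *Il6ra* library was at 19.97 CPM and the lowest *Lifr* library, number 4, at 62.95 CPM. *Il6* was highest in number 4 of iCre CTRL, at 2.781 CPM.

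The effect of a ligand differed between iCre and LacZ fibroblasts, by the interaction term of edgeR's quasi-likelihood test, for 6 genes with TNFα. It was more positive in iCre for *Il11* (4.03 on the log2 scale, adjusted p = 0.00227), *Clcf1* (1.83, adjusted p = 0.000461) and *Lif* (1.85, adjusted p = 0.0259). The TNFα effect was more negative in iCre for *Lifr* (−2.57, adjusted p = 0.0027), *Il6st* (−1.41, adjusted p = 0.00501) and *Osmr* (−1.07, adjusted p = 0.00726). With TGFβ the interaction was −0.96 for *Lifr* (adjusted p = 0.0439) and −0.66 for *Osmr* (adjusted p = 0.0102), and with IL-1β it was −0.94 for *Lifr* (adjusted p = 0.0108). Of all 25210 genes the interaction called 2113 higher and 1941 lower with TNFα, 225 and 913 with TGFβ, and 696 and 1247 with IL-1β. Without number 3, *Clcf1* with TNFα was the only one of these calls to remain (the others had adjusted p = 0.0554 to 0.429). GC correction kept the 6 calls with TNFα and none with TGFβ or IL-1β. With the block as well, 1 member passed with TGFβ and 3 with IL-1β.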

How the results depend on the processing

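Of the 170 tests of the 10 genes over 17 comparisons, 69 passed, and no alternative reversed a called direction. With the replicate block 111 passed, and 128 tests stayed on their side of the threshold while 42 newly passed. Calls among all genes also rose with the block in every comparison but the bFGF interaction. The number of genes called moved by over 1.5 times with the block for bFGF in LacZ (5 to 10) and iCre (2 to 7) and for iCre against LacZ with CTRL (0 to 5), bFGF (0 to 3), TGFβ (1 to 8) and IL-1β (5 to 10), and the IL-1β interaction went from 1 to 4. Of all genes the block called 27.3%, 16.7%, 14.5%, 13.9%, 20.8%, 29.5% and 16.9% in these 7 comparisons, against 11.6%, 2.42%, 0.0754%, 0%, 8.37%, 16.1% and 7.71% without it. With GC correction and the block these were 9, 8, 6, 3, 6, 7 and 3, IL-1β in LacZ gave 10 rather than 7, and the TGFβ interaction 1 rather than 2 (27.3%, 16.5%, 14.9%, 14.1%, 9.61%, 22.4%, 12.3%, 33.9% and 2.61% of all genes). GC correction alone gave 0 calls for iCre against LacZ with TGFβ and for the TGFβ and IL-1β interactions, where it called 0.889%, 0.525% and 4.01% of all genes against 8.37%, 4.51% and 7.71%. DESeq2 gave 7 for bFGF in iCre, 2 and 4 for iCre against LacZ with CTRL and TGFβ, and 3 for the IL-1β interaction (8.09%, 5.43%, 15.8% and 11.7% of all genes called by it, against 2.42%, 0.0754%, 8.37% and 7.71%). The filter of filterByExpr also gave 3 for that interaction (15.1% of the genes it kept). Without a filter bFGF in iCre gave 4 (2.45%). RLE scaling gave 1 for the TGFβ interaction (4.78%). All 40 libraries in 1 fit gave 4 for IL-1β in LacZ, 4 and 8 for bFGF and TNFα in iCre, 2 for iCre against LacZ with TGFβ, and 1 and 0 for the TGFβ and IL-1β interactions (21.6%, 6.04%, 31.9%, 14.2%, 5.91% and 7.82% of all genes). The cause of these changes was not tested.

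Leaving out 1 replicate number moved the calls among all genes as well, and the share of all genes is given beside each count. In LacZ it gave 2 to 5 calls for bFGF (1.32% to 18.2%), 7 to 9 for TGFβ (25.9% to 37.1%), 4 to 7 for IL-1β (9.22% to 23.4%) and 5 to 7 for TNFα (10.5% to 23.5%). In iCre it gave 0 to 7 (0% to 12.7%), 8 to 9 (27% to 40%), 5 to 7 (6.85% to 18.1%) and 4 to 8 (14% to 25.4%). For iCre against LacZ it gave 0 with CTRL (0% to 2.78%) and bFGF (0% to 1%), 0 to 5 with TGFβ (2.01% to 12.5%), 3 to 6 with IL-1β (6.18% to 16.6%) and 4 to 6 with TNFα (13% to 27.1%). For the interactions it gave 0 with bFGF (0% to 0.00397%), 0 to 2 with TGFβ (1.28% to 5.27%), 0 to 2 with IL-1β (2.37% to 6.85%) and 1 to 6 with TNFα (5.39% to 15.4%). Without number 3 the member calls fell to 43 in all, and calls among all genes fell in every comparison that had any. For bFGF in LacZ the latter went from 1765 higher and 1169 lower to 222 and 110. With raw library sizes in place of TMM, 92 of 100 group means moved by less than 1 SD. At this depth *Il11* and *Il6* in CTRL fibroblasts lay near 1 to 3 CPM, so their fold changes rest on low control levels.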
